A study of Mus musculus with 65 samples.

Results

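YY1 peaks that lay on a CTCF peak and on no LDB1 peak were examined in G1E-ER4 cells, a mouse erythroblast line that lacks its own GATA1 and carries an estradiol-activated one. The sites were defined by position: a peak of the YY1 consensus set of untreated LDB1-AID cells on chromosomes 1 to 19 or X had to share at least 1 bp with the CTCF set and none with the LDB1 set of the same cells. This rule found 1977 of 12816 YY1 peaks, or 15.4% (Wilson 95% interval 14.8 to 16.1). Another 213 YY1 peaks lay on CTCF but were removed because they also touched LDB1, which is 9.73% of the 2190 YY1 peaks on CTCF.

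YY1 is a zinc finger protein found at promoters and enhancers and known for holding distant DNA elements together. CTCF is a zinc finger protein at which cohesin, the ring complex that extrudes chromatin loops, comes to a stop. RAD21 and SMC3 are core subunits of that ring, so a RAD21 peak marks where cohesin accumulates. LDB1 does not bind DNA itself; it is brought to erythroid enhancers and promoters by GATA1, TAL1 and their partners and links such elements by self-association.

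The series profiled these cells by chromatin immunoprecipitation and sequencing (ChIP-seq), in 65 samples of 29 groups, and 9 peak sets covering 22 samples were used here. Each set pools the replicates of its group. The LDB1-AID subline carries LDB1 fused to an auxin-inducible degron, a tag by which the plant hormone auxin triggers destruction of the fused protein, and the SMC3-AID subline carries the same kind of tag on SMC3. The sets were YY1, CTCF, LDB1 and RAD21 of untreated LDB1-AID cells and LDB1 after 4 h of auxin, with 2 replicates each, and LDB1 and RAD21 of SMC3-AID cells, untreated and after 4 h of auxin, with 3 replicates each. The untreated controls carry the tag as well. The labels do not say whether a subline is 1 clone or whether estradiol was given. The labels list no YY1 or CTCF samples of SMC3-AID cells, so a site was followed across sublines by RAD21 and LDB1 only.

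On these chromosomes the sets held 54223 CTCF, 10729 LDB1 and 33160 RAD21 peaks in untreated LDB1-AID cells, and 1043 LDB1 peaks after auxin. Untreated SMC3-AID cells had 8585 LDB1 and 15223 RAD21 peaks, and after auxin 7237 and 24. Every peak was 400 bp wide and carried no height, score or read depth. Percentages therefore describe presence or absence of a called peak, and a missing peak can reflect the threshold of a set as well as occupancy. Intervals cover counting error only, because peaks of a pooled set are not replicates and no spread between replicates could be measured. Erythroblast identity could not be checked against marker expression in peak lists.

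The sites were spread along CTCF peaks nearly 1 to 1. Of the 1977 sites, 1975 touched 1 CTCF peak and 2 touched 2. They were carried by 1979 CTCF peaks, which is 3.65% of all CTCF peaks, and 20 of those CTCF peaks touched LDB1 outside the YY1 peak.

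The number of YY1 peaks without LDB1 rose toward CTCF midpoints. In successive 100 bp bins of distance to the nearest CTCF midpoint there were 578, 546, 458 and 395 YY1 peaks within the 399 bp at which peaks of this width share a base. The next 4 bins, outside the rule, held 241, 235, 202 and 192, and bins between 800 and 1999 bp held 103 to 171. The sites are thus the inner end of a decline that goes on past the limit of the rule, and the largest step between neighbouring bins lay at that limit.

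The decline was steepest for CTCF peaks that carried cohesin. Bins within 399 bp held 268 to 423 YY1 peaks whose nearest CTCF peak had RAD21, against 110 to 146 in the bins from 400 to 799 bp. For nearest CTCF peaks without RAD21 the counts were 127 to 155 and 82 to 116. RAD21 was thus present at the nearest CTCF peak of 71.2% of the sites and of 55.7% of the 870 YY1 peaks lying 400 to 799 bp away, a difference of 15.5 percentage points (Newcombe 95% interval 11.6 to 19.3). RAD21 of untreated SMC3-AID cells, an independent set of libraries, was at that CTCF peak for 36.1% and 25.1%, a difference of 11.1 percentage points (7.41 to 14.6).

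**Figure D1:**
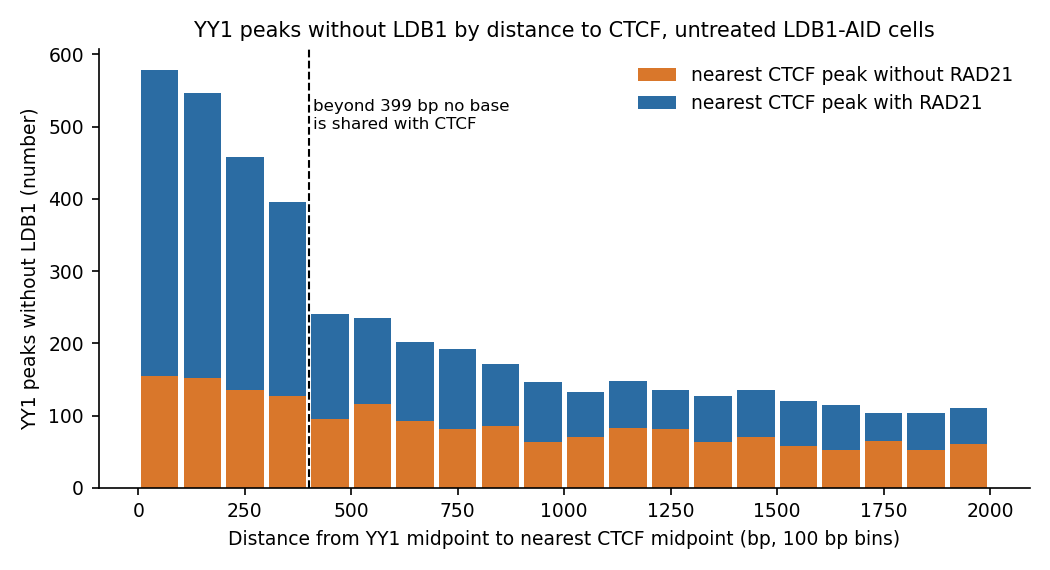
Number of YY1 peaks without LDB1 (vertical axis) in 100 bp bins of distance in bp from the YY1 midpoint to the nearest CTCF midpoint (horizontal axis), stacked by presence of RAD21 at that CTCF peak in untreated LDB1-AID cells; the dashed line marks the limit of the rule. Counts fall from 578 in the first bin to 395 in the fourth and 241 in the fifth, mostly in the part with RAD21.

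Peaks just inside and just outside the limit were as follows. With the CTCF midpoint 380 to 399 bp away there were 76 sites, of which 41 had RAD21 in LDB1-AID cells and 20 had RAD21 in SMC3-AID cells. With CTCF 400 to 419 bp away, and so outside the rule, 56 YY1 peaks gave 31 and 13. On the LDB1 side, 13 sites had an LDB1 midpoint 400 to 450 bp away, and 4 of those had an LDB1 peak in untreated SMC3-AID cells. Of 11 YY1 peaks on CTCF removed by an LDB1 midpoint 350 to 399 bp away, 7 had one.

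Cohesin was present at most of the sites. In untreated LDB1-AID cells 1388 of 1977 sites shared a base with a RAD21 peak, or 70.2% (68.2 to 72.2), and 589 did not. Over all YY1 peaks the share was 27.6%, and that figure includes the sites. Among the 8647 YY1 peaks with neither CTCF nor LDB1 it was 14.1%, which is 56.1 percentage points lower (53.9 to 58.2). The 213 YY1 peaks on both CTCF and LDB1 carried RAD21 more often, at 79.8%, so that the sites differed from them by −9.6 percentage points (−14.9 to −3.39).

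The sites also carried cohesin more often than CTCF peaks lacking YY1. With the CTCF peak as the unit, RAD21 was at 1391 of 1959 CTCF peaks that carried a site and no LDB1, or 71.0%. It was at 24848 of 51438 CTCF peaks with neither YY1 nor LDB1, or 48.3%, a difference of 22.7 percentage points (20.6 to 24.7). Over all CTCF peaks the share was 49.5%. Peak height is unknown, so whether CTCF peaks that carry YY1 are stronger ones was not tested.

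The RAD21 set of the SMC3-AID subline played no part in choosing or splitting the sites. It too set them apart from YY1 peaks with neither CTCF nor LDB1. Untreated SMC3-AID cells had RAD21 at 685 sites, or 34.6% (32.6 to 36.8), against 8% of all YY1 peaks and 1.65% of YY1 peaks with neither CTCF nor LDB1. The last difference was 33.0 percentage points (30.9 to 35.1). In LDB1-AID cells the sites had a lower RAD21 share than the 213 YY1 peaks on CTCF and LDB1. Here the share of those 213 was 30.5%, and the difference of 4.13 percentage points had an interval that included 0 (−2.67 to 10.3). This RAD21 set held 15223 peaks against 33160 in LDB1-AID cells, so a lower share than in LDB1-AID cells is not particular to the sites.

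Most of the RAD21 seen in the second subline fell on sites that had it in the first. Of the 1388 sites with RAD21 in LDB1-AID cells, 638 had it in SMC3-AID cells, or 46.0% (43.4 to 48.6). Of the 589 sites without it, 47 did, or 7.98% (6.05 to 10.5), and the difference between these classes was 38.0 percentage points (34.4 to 41.2).

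Within these classes the sites differed from CTCF peaks lacking YY1 and LDB1 in opposite directions. Among peaks with RAD21 in LDB1-AID cells, the sites kept RAD21 in SMC3-AID cells less often than the 51.0% of those CTCF peaks (12670 of 24848), a difference of −5.02 percentage points (−7.7 to −2.32). Among peaks without it, the sites had RAD21 in SMC3-AID cells more often than the 1.55% of those CTCF peaks (413 of 26590), a difference of 6.43 percentage points (4.49 to 8.9). Counting at the CTCF peak in both groups, which was added with the results in view, gave 46.9% (652 of 1391) and 9.68% (55 of 568), with differences of −4.12 (−6.8 to −1.42) and 8.13 (5.96 to 10.8). Neither difference held under every overlap rule: with 50% of each peak required to overlap the first was −3.22 (−6.84 to 0.45), and when a gap of up to 1 kb was allowed the second was 0.109 (−0.346 to 0.94). The second difference moved both ways, since with 50% of each peak required to overlap it was 12.0 (8.92 to 15.8).

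Over both classes together, CTCF peaks that carried a site had RAD21 in SMC3-AID cells more often, at 36.1% (707 of 1959) against 25.4% (13083 of 51438), a difference of 10.7 percentage points (8.52 to 12.8). The share over all CTCF peaks was 25.9%. This overall difference mixes the classes, since 71.0% of the CTCF peaks carrying a site and 48.3% of the others had RAD21 in LDB1-AID cells, and within the class with RAD21 the sign was the opposite. YY1 peaks with neither CTCF nor LDB1 were far below both, at 7.94% with RAD21 in LDB1-AID cells and 0.62% without.

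**Figure D2:**
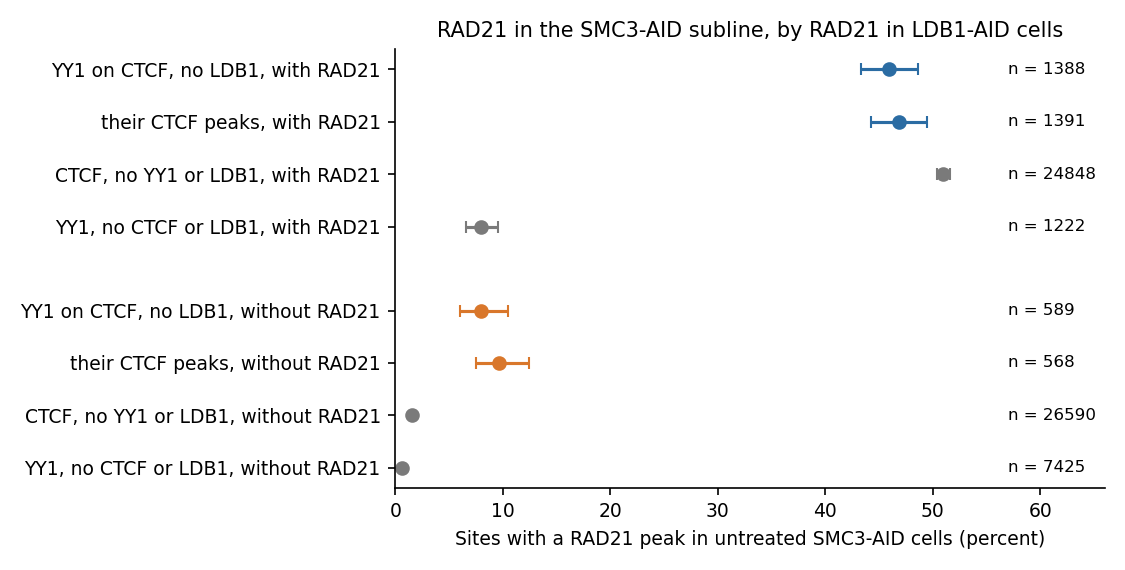
Percent of sites with a RAD21 peak in untreated SMC3-AID cells (horizontal axis) for 8 classes of YY1 or CTCF peaks, split by RAD21 in untreated LDB1-AID cells; points are shares, bars are Wilson 95% intervals (some smaller than the point) and n is the number of peaks. YY1 peaks on CTCF without LDB1 sit at 46.0% and 7.98%, beside 51.0% and 1.55% for CTCF peaks lacking YY1 and LDB1.

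Some sites counted as lacking RAD21 had it on the CTCF peak beside the YY1 peak. This was so for 67 of the 589, and 11 of those, 16.4% (9.42 to 27.1), had RAD21 at the YY1 peak in SMC3-AID cells. The other 522 had RAD21 at neither peak in LDB1-AID cells. Of them, 36, or 6.9% (5.02 to 9.4), had it at the YY1 peak in SMC3-AID cells. At the CTCF peak 34 of the 522, or 6.51% (4.7 to 8.96), had it. Both intervals lie above the 1.55% of CTCF peaks lacking RAD21, YY1 and LDB1, which was counted at the CTCF peak.

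No RAD21 peak was found at the sites after degradation of SMC3. After 4 h of auxin 0 of 1977 sites shared a base with a RAD21 peak in SMC3-AID cells, which allows a share of up to 0.152%. Over all YY1 peaks 3 of 12816, or 0.0234%, did, and the whole set held only 24 peaks on these chromosomes. The sites thus shared the loss of the set as a whole.

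YY1 midpoints were loosely placed around CTCF. The median distance between the midpoints was 168 bp (order-statistic 95% interval 160 to 178), with quartiles of 84 and 275 bp. Peaks of 400 bp that share a base must lie within 399 bp of each other, and an even spread over these positions would give a median of 200 bp and put 12.6% within 50 bp. The sites had 15.8% within 50 bp and 29.3% within 100 bp, the latter against 25.2% for an even spread. Sites with RAD21 had a median of 160 bp (152 to 171) and sites without RAD21 one of 195 bp (178 to 215). The sites without RAD21 had 14.6% within 50 bp (12.0 to 17.7). Both of their intervals include the value of an even spread. RAD21 was asked for at the YY1 peak here, and a YY1 peak near CTCF reaches RAD21 at that CTCF more easily. The split itself thus favours shorter offsets in the class with RAD21. The rule bounds these offsets, so they are a description.

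Median distances were shortest from CTCF to RAD21, longer from YY1 to RAD21 and longest from YY1 to CTCF. Each was taken over sites where that pair of peaks shared a base. The sites therefore differ between distances, each distance is bounded by its own overlap, and the order is a description. At the 1388 sites with RAD21 the YY1 to RAD21 median was 124 bp (117 to 134), with 21.2% within 50 bp. At sites whose CTCF peak had RAD21 the CTCF to RAD21 median was 72 bp (68 to 77), with 37.4% within 50 bp. The same distance was 54 bp (53 to 55) at CTCF peaks with neither YY1 nor LDB1, so RAD21 was more widely placed around CTCF where YY1 was present. With RAD21 of SMC3-AID cells that contrast was not seen: the medians were 63.5 bp (59 to 70) and 66 bp (65 to 68).

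Other classes of YY1 peaks give a scale for these distances. YY1 to LDB1 at the 1979 YY1 peaks on LDB1 without CTCF had a median of 119 bp (112 to 125). At the 213 YY1 peaks on both, YY1 to CTCF was again 168 bp (132 to 212). YY1 to RAD21 at YY1 peaks with neither CTCF nor LDB1 had a median of 162 bp (152 to 174). Between the RAD21 sets of the sublines, midpoints at 638 shared sites differed by a median of 44 bp (40 to 49), against 32 bp (32 to 34) at CTCF peaks with neither YY1 nor LDB1, and these values show how closely midpoints of the same protein matched between sublines.

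**Figure D3:**
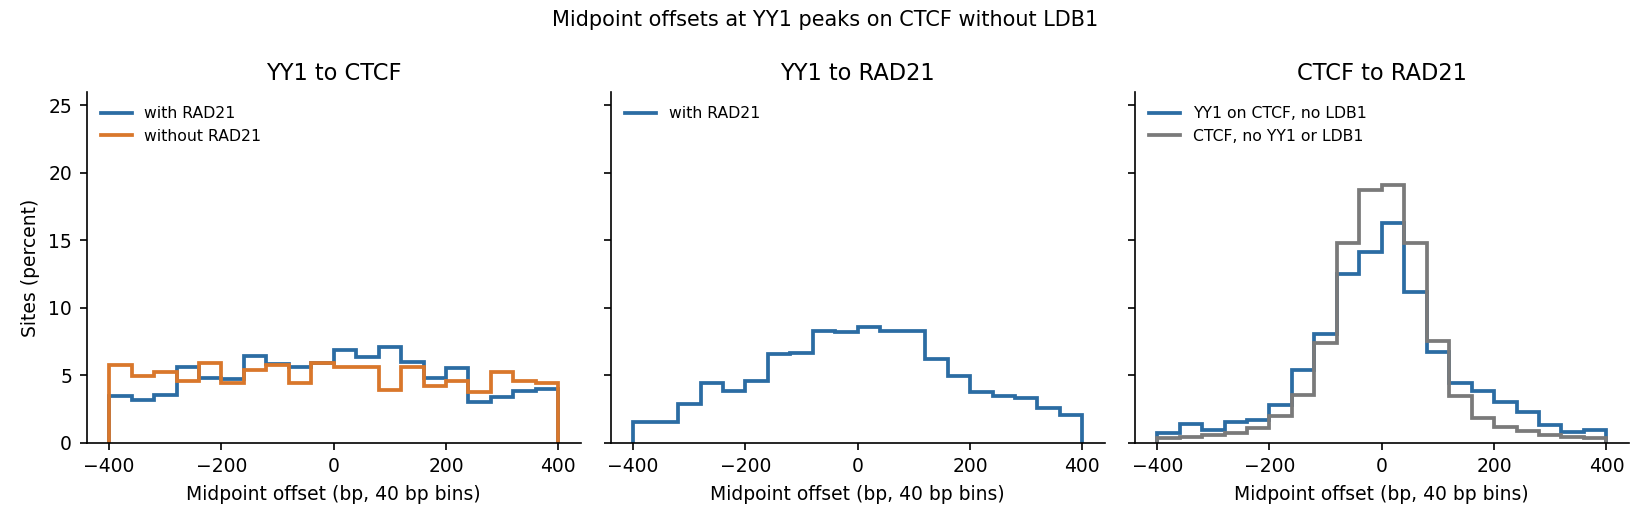
Percent of sites (vertical axis) by signed midpoint offset in bp (horizontal axis, 40 bp bins, positive toward higher coordinates) for YY1 to CTCF, YY1 to RAD21 and CTCF to RAD21. YY1 to CTCF is broad, with a median distance of 160 bp at sites with RAD21 and 195 bp at sites without it. That split is by RAD21 at the YY1 peak, which favours shorter offsets in the class with RAD21. CTCF to RAD21 is peaked near 0, with medians of 72 bp at the sites and 54 bp at CTCF peaks lacking YY1 and LDB1.

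In the order of the 3 midpoints, RAD21 was most often in the middle. This held for 683 of the 1388 sites with RAD21, or 49.2% (46.6 to 51.8), while CTCF was in the middle at 412 (29.7%) and YY1 at 281 (20.2%), and midpoints coincided at 12. YY1 was nearer to RAD21 than to CTCF at 843 sites, or 60.7% (58.1 to 63.3). These sites were required to have RAD21 at the YY1 peak, which favours RAD21 midpoints close to YY1.

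The side on which RAD21 lay was therefore counted at the CTCF peak, without asking for RAD21 at the YY1 peak. At 919 of 1401 such CTCF peaks, 65.6% (63.1 to 68.0), the RAD21 midpoint was on the side of CTCF where YY1 lay, with a median shift toward YY1 of 37 bp (32 to 45). The share rose with the YY1 to CTCF distance from 54.3% (49.5 to 59.0) at 1 to 100 bp to 68.9%, 70% and 73.4% (67.7 to 78.4) in the next 3 classes of 100 bp.

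RAD21 of untreated SMC3-AID cells was toward YY1 at 440 of 709 CTCF peaks, 62.1% (58.4 to 65.6), with a median shift of 25 bp (18 to 39), and by distance class the shares were 55.6%, 64.2%, 67.9% and 62.5%. The offsets of YY1 and of RAD21 are both taken from the CTCF midpoint, so an error in its placement moves them to the same side and 50% is not the value to expect without a relation. How much of these shares comes from such error was not tested, and the same holds for the order of the midpoints.

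**Figure D4:**
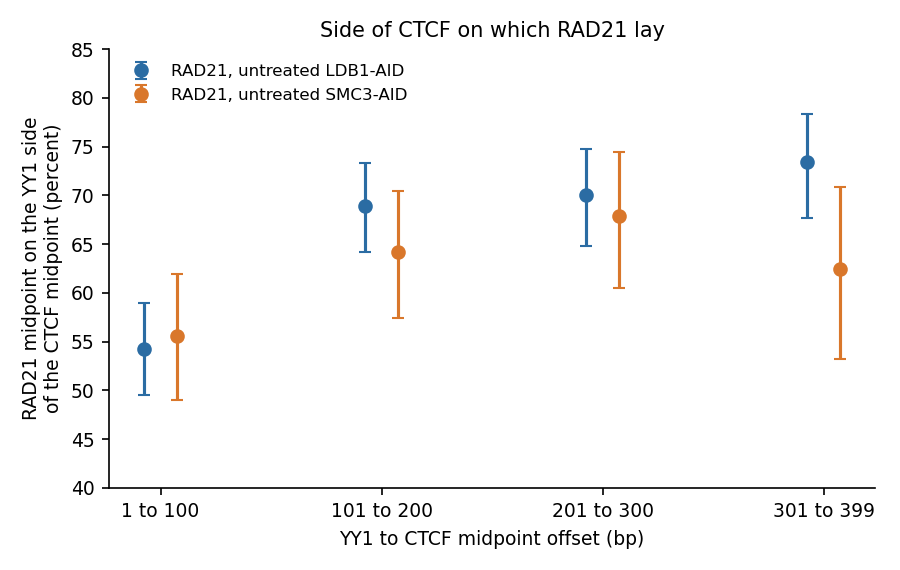
Percent of CTCF peaks carrying a site at which the RAD21 midpoint lay on the YY1 side of the CTCF midpoint (vertical axis, from 40 to 85) by YY1 to CTCF midpoint distance in bp (horizontal axis); points are shares, bars are Wilson 95% intervals, and colours are the untreated sublines. In LDB1-AID cells the share goes from 54.3% at 1 to 100 bp to 73.4% at 301 to 399 bp.

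Sites with YY1 closer to CTCF had RAD21 at the YY1 peak more often. RAD21 was at the YY1 peak in 73.4%, 73.3%, 69.9% and 61.8% of sites in successive 100 bp bins of YY1 to CTCF distance, and in 39.1%, 37.0%, 36.0% and 23.3% in SMC3-AID cells. A YY1 peak farther from CTCF reaches RAD21 at that CTCF less easily, so RAD21 was also looked for at the CTCF peak. There the nearest bin minus the farthest was 5.34 percentage points in LDB1-AID cells, with an interval that included 0 (−0.461 to 11.2), and 10.7 in SMC3-AID cells (4.6 to 16.5).

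LDB1 was nearly absent from the sites in the second subline as well. Untreated SMC3-AID cells had an LDB1 peak at 7 sites, or 0.354% (0.172 to 0.729), against 13.4% of all YY1 peaks. After auxin there were 6, or 0.303% (0.139 to 0.661), against 12.3%. YY1 peaks with neither CTCF nor LDB1, which the rule also chose for lacking LDB1, had 0.937% and 0.705%, so the sites differed from them by −0.583 (−0.873 to −0.166) and −0.402 (−0.661 to −0.0124) percentage points. Against CTCF peaks the sign was the opposite, but this rests on few peaks. CTCF peaks carrying a site had 0.255% and 0.204% (5 and 4 of 1959). CTCF peaks with neither YY1 nor LDB1 had 0.0894% and 0.07% (46 and 36 of 51438). The differences were 0.166 (0.0166 to 0.507) and 0.134 (0.00658 to 0.454) percentage points. In all 8 sites had LDB1 in either SMC3-AID set and 5 had it in both, and 6 of the 8 had an LDB1 midpoint of untreated LDB1-AID cells within 600 bp.

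The distance to the nearest LDB1 peak was close to that of other YY1 peaks and shorter than that of other CTCF peaks. The median was 28.7 kb (26.9 to 31.9) at the sites, 26.4 kb (25.2 to 27.7) at YY1 peaks with neither CTCF nor LDB1 and 56.2 kb (55.1 to 57.1) at CTCF peaks with neither YY1 nor LDB1. With the LDB1 set of untreated SMC3-AID cells these medians were 41.0, 37.1 and 67.7 kb. Within 10 kb of LDB1 lay 27.7% of the sites, 31.6% of the YY1 peaks and 16% of the CTCF peaks. The median was 28.0 kb at sites with RAD21 and 31.2 kb at sites without it.

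After 4 h of auxin in LDB1-AID cells, LDB1 peaks lay on 24 sites, or 1.21% (0.817 to 1.8), against 3.87% of all YY1 peaks. Of these sites 15 had RAD21 in untreated cells and 9 did not. YY1 peaks with neither CTCF nor LDB1 had 1.04%, and the difference of 0.173 percentage points had an interval that included 0 (−0.289 to 0.79). The sites stood apart from CTCF peaks instead: 23 of 1959 CTCF peaks carrying a site had an LDB1 peak after auxin, or 1.17%, against 18 of 51438 CTCF peaks with neither YY1 nor LDB1, or 0.035%, a difference of 1.14 percentage points (0.748 to 1.72). At 16 of the 24 sites the nearest LDB1 midpoint of untreated cells was over 10 kb away, and at 5 it was within 600 bp. Depth and threshold of the sets are unknown, so a gain of LDB1 and a difference in peak calling cannot be told apart.

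Positions of single sites, in mm9 coordinates counted from 1, show the range of arrangements. The 4 sites with RAD21 in both untreated sublines and the tightest arrangement were chr14:51682977-51683376, chr3:135549496-135549895, chr19:25036143-25036542 and chr11:94410269-94410668. At the chromosome 14 site YY1 lay 15 bp from CTCF, 8 bp from RAD21 and 21 bp from RAD21 of SMC3-AID cells, with the nearest LDB1 midpoint 20.8 kb away. At the chromosome 11 site these distances were 8, 20 and 29 bp, and LDB1 was 315 kb away. At the other 2 sites LDB1 was 42.8 and 167 kb away.

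YY1 and CTCF midpoints also lay close together at single sites where no cohesin was called in either subline. The 4 such sites with the smallest offset were chr4:46808579-46808978, chr5:109988316-109988715 and chr6:39524016-39524415, with midpoints 1 bp apart, and chr2:121299831-121300230, with midpoints 2 bp apart. Their nearest RAD21 midpoints in LDB1-AID cells were 14.6, 10.6, 6.46 and 6.35 kb away. The fourth place was a tie, settled by chromosome order: chr5:97437060-97437459 and chr17:34164570-34164969 also had midpoints 2 bp apart, with RAD21 3.54 and 24.2 kb away.

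Sites with LDB1 in both SMC3-AID sets and in auxin-treated LDB1-AID cells numbered 3, and each had an untreated LDB1 midpoint within 600 bp of the YY1 midpoint. At chr5:20508593-20508992 YY1 was 43 bp from CTCF and 40 bp from RAD21, and the LDB1 midpoint of untreated LDB1-AID cells was 410 bp away, while the LDB1 midpoints of the other sets were 134 to 178 bp away. At chr12:78186353-78186752 the untreated LDB1 midpoint was 514 bp away, and RAD21 shared a base in SMC3-AID cells but not in LDB1-AID cells. At chr13:45607530-45607929 the untreated LDB1 midpoint was 405 bp away, and RAD21 shared a base in LDB1-AID cells but not in SMC3-AID cells.

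The sites were mostly solitary with respect to each other. Another site lay within 25 kb of 325 of them, or 16.4% (14.9 to 18.1), and 1652 had none within that distance. Any other YY1 peak lay within 25 kb of 60.3% of the sites (58.1 to 62.4), near the 62.1% over all YY1 peaks. Linking sites within 25 kb of each other gave 151 chains of at least 2, of which 131 held 2, 17 held 3 and 3 held 4.

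The 3 chains of 4 sites are given beside the shares over all sites, 70.2% with RAD21 in LDB1-AID cells and 34.6% in SMC3-AID cells. Whether the chains differ from each other or from these shares was not tested. At chr11:78141709-78174041, which spans 32.3 kb, 4 of 4 sites had RAD21 in LDB1-AID cells and 2 in SMC3-AID cells, and the nearest LDB1 midpoint was 60.4 kb away. At chr7:133618572-133646874, which spans 28.3 kb, the counts were 3 and 1, with LDB1 47.0 kb away. At chr1:88381749-88425020, which spans 43.3 kb, they were 2 and 0, and this chain held 2 LDB1 peaks, the nearest midpoint being 0.777 kb from a site. None of the 12 sites had LDB1 after auxin in LDB1-AID cells or in either SMC3-AID set. Over all sites these shares were 1.21%, 0.354% untreated and 0.303% after auxin.

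All chromosomes carried the sites at similar shares of their YY1 peaks. The share ran from 13.0% on chromosome 12 to 18.9% on chromosome 14, and of 20 chromosomes only chromosome 11, with 197 sites and 17.9% (15.8 to 20.3), had an interval that left out the share over all. The part of the sites with RAD21 ran from 58.6% (48.7 to 67.8) on chromosome 17 to 85% (73.9 to 91.9) on chromosome 16, and these were the 2 chromosomes whose interval left out 70.2%. In each of these comparisons 20 intervals at the 95% level were looked at.

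**Figure D5:**
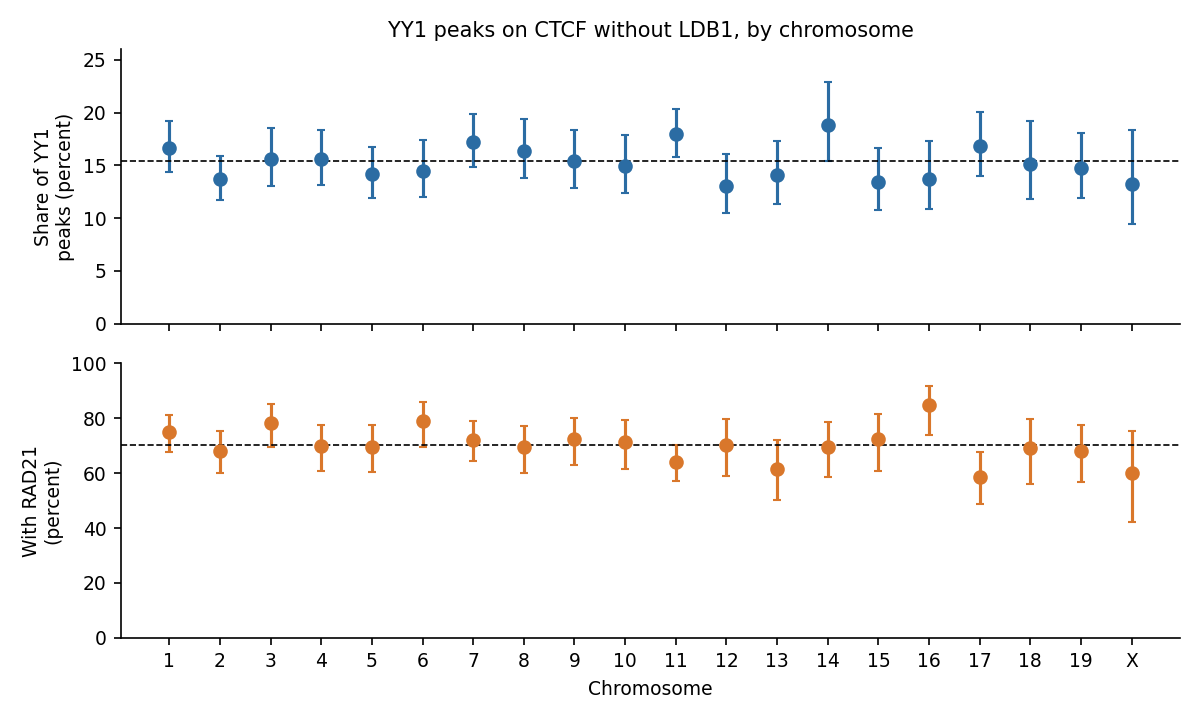
Percent of YY1 peaks that lay on CTCF without LDB1 (upper panel) and percent of these with RAD21 in untreated LDB1-AID cells (lower panel) by chromosome (horizontal axis); points are shares, bars are Wilson 95% intervals and dashed lines mark the shares over all, 15.4% and 70.2%. Chromosome 11 in the upper panel, and chromosomes 16 and 17 in the lower, have intervals that leave out the line.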

How the data were processed

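The labels list 65 ChIP-seq samples of G1E-ER4 sublines, grouped here by sample title; 22 of them lie behind the 9 peak sets used, and the other samples were not analysed here. Each set deposited by the authors holds a chromosome, a start and an end per peak, so the values are positions in bp with no score, and depth is unknown. The submitters' processing notes name Bowtie2, MACS2 2.2.9.1, deepTools 3.5.1 and build mm9 without giving roles; the rule and threshold behind a consensus peak are not given in the sources used here.

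Peaks on chromosomes 1 to 19 and X were compared with numpy 2.4.6 and pandas 2.3.3 (Python 3.11.15); sharing meant at least 1 bp. The nearest midpoint gave offsets. Shares have Wilson intervals, differences Newcombe intervals and medians order-statistic intervals, all at the 95% level. No p-value was computed. Overlap counting was tested on simulated data and checked against bedtools 2.31.1. Counts over all YY1 or CTCF peaks include the sites.

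The sites and comparisons were chosen with earlier results of these data known. Named sites were the 4 tightest with RAD21 in both untreated sublines, the 4 with the smallest YY1 to CTCF offset and no RAD21 in either, any with RAD21 after auxin (none), the 3 largest chains, and those with LDB1 in both SMC3-AID sets and after auxin in LDB1-AID cells. Reference tables at hand were of another assembly, so no gene, transcript start, motif or sequence was assigned. Alternatives were stricter and looser overlap, each applied to CTCF, LDB1 and RAD21 calls alike, and autosomes only. Others were wider LDB1 removal, merging of sites within 1 kb and all overlapping partners. The CTCF peak as unit was added after the data were seen.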

Additional observations from a re-analysis of the deposited data

Results flagged for a closer look

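Peaks on contigs outside chromosomes 1 to 19 and X were left out of every comparison above. Among the 17 YY1 peaks there, 4 lay on CTCF without LDB1, where the share on the chromosomes used was 15.4%. All 4 had RAD21 in untreated LDB1-AID cells, where the share over the sites was 70.2%. Whether these small counts differ from those shares was not tested.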

How the results depend on the processing

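Of 131 values of 17 results recomputed under 9 alternatives, 0 reversed. A share or median was taken as kept when it stayed within the interval of the reported value, the number of sites when it stayed within 1.5 times, and a difference when its interval still left out 0, whatever its size; on these terms 102 were kept, 26 moved and 3 differences came to have an interval that included 0. Asking for 50% of both peaks to be shared, or for midpoints at most 200 bp apart, is the same rule for peaks of equal width. Its values are counted under both names in the totals above. The same limit was applied to LDB1, so YY1 peaks with a smaller LDB1 overlap were taken in. Only 1130 of the reported sites had a CTCF midpoint within 200 bp, and this rule gave 1162 sites. RAD21 was then at 63.2% of them, RAD21 of SMC3-AID cells at 15.4% of those without RAD21, and the differences from CTCF peaks with and without RAD21 were −3.22 and 12.0 percentage points, the latter kept in sign but over 1.5 times the reported 6.43. LDB1 of untreated SMC3-AID cells was at 0.602%, within its interval but also over 1.5 times the reported 0.354%. The distance to LDB1 was 26.6 kb, the YY1 to CTCF, YY1 to RAD21 and CTCF to RAD21 offsets were 96, 76.5 and 54 bp, and RAD21 lay toward YY1 in 61.0%. Allowing a gap of 1 kb gave 3434 sites, offsets of 363, 244 and 91 bp, a share of 0.926% with RAD21 of SMC3-AID cells in those without RAD21, and a difference from CTCF peaks without RAD21 of 0.109 percentage points. The offsets move by construction, since each rule bounds them. Each rule's limit also set the RAD21 and LDB1 calls, so the classes and shares were redefined with it. How much of each change in a share or difference comes from this was not tested. Removing sites with LDB1 in untreated SMC3-AID cells left LDB1 at 0% of sites there and at 0.0508% after auxin. Removing sites with LDB1 within 1 kb left 0.108% and 0%, and a distance to LDB1 of 33.2 kb. Autosomes only, merging of sites within 1 kb, all overlapping partners and the CTCF peak as unit moved none of the results computed under them.

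No paired analysis was possible because the peak lists pool the replicates of a group, and for the same reason no replicate was left out. The planned motif and transcript start results were not run, for want of mm9 sequence and annotation here. Depth and peak height are unknown, so no detection limit is given for an absent peak.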

Other observations

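Of the 1043 LDB1 peaks of auxin-treated LDB1-AID cells, 207, or 19.8% (Wilson 95% interval 17.5 to 22.4), shared no base with an LDB1 peak of untreated cells. Among these 207, 102 lay on a YY1 peak, or 49.3% (42.5 to 56.0), and 32 on a CTCF peak, or 15.5% (11.2 to 21.0). YY1 peaks with neither CTCF nor LDB1 accounted for 78 of them and YY1 peaks on CTCF without LDB1 for 20, or 9.66% (6.34 to 14.5). The 207 peaks were chosen for lacking untreated LDB1, which favours YY1 classes without LDB1. Of all YY1 peaks without LDB1, 1977 of 10624, or 18.6%, lay on CTCF. No share over all LDB1 peaks was computed. For scale, the LDB1 set of untreated cells held 10729 peaks, and 2192 YY1 peaks and 795 CTCF peaks touched it. Whether the 207 peaks differ from that set was not tested, so their counts are a description.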
